A study of Danio rerio with 12 samples.

Results

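The miR-221 and miR-222 family comprised 5 mature microRNAs in these zebrafish libraries, dre-miR-221-3p, dre-miR-221-5p, dre-miR-222a-3p, dre-miR-222a-5p and dre-miR-222b, out of 326 mature microRNAs with a count. They are every entry whose name begins with miR-221 or miR-222. The family and the lists of other microRNAs below were chosen with earlier results of these data known. Counts of calls among them are therefore descriptions. The libraries were small RNA from dissociated and sorted cells of transgenic zebrafish raised at 28 °C, by title an Endo and a NoEndo population at 24, 48 and 72 hours post fertilization (hpf) and 6 days post fertilization (dpf). Of the 12 libraries, 2 hold identical values, replicate 1 at 72 hpf under both titles, and both were left out of every comparison. That left 5 Endo and 5 NoEndo libraries, each population being represented by replicate 1 alone at 24 hpf and 6 dpf, by replicate 2 alone at 72 hpf and by both at 48 hpf. The labels of all libraries read endothelial and GFP (the green fluorescent protein used for the sort), NoEndo included, so the populations rest on the titles. They name no transgene promoter, fish line or number of pooled animals, and whether replicates 1 and 2 are separate clutches is not stated, so a p-value here speaks only to the spread among these libraries, which may be technical.

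A microRNA hairpin is cut into a duplex whose 5′ and 3′ arms (5p and 3p) can each be retained, and the retained arm guides a silencing complex to messenger RNAs that pair with its seed. In vertebrates miR-221 and miR-222 are made from neighbouring hairpins, and their 3p arms share a seed. In zebrafish, miR-221 is known to promote sprouting of endothelial cells, which line blood vessels, by repressing cdkn1b, a cell cycle inhibitor, and pik3r1, a regulatory subunit of phosphoinositide 3-kinase.

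In the Zv9 coordinates of the deposited tables, 4 of the 5 members lie on the minus strand of chromosome 9 within 588 bases. In order of transcription these are miR-222a-5p at chr9:34892717-34892739, miR-222a-3p at chr9:34892678-34892701, miR-221-5p at chr9:34892189-34892214 and miR-221-3p at chr9:34892152-34892174. The closest ends of the miR-222a and miR-221 entries are separated by 463 bases. A second place of miR-221-3p is listed at chr6:59627909-59627931 on the minus strand, with no 5p arm beside it. Nearly all miR-221-3p reads mapped to both places, and the chromosome 6 place held between 6 and 83 more reads than the chromosome 9 place, 0.0314% to 0.454% of its reads. The level of miR-221-3p is therefore given as the sum of both places, and its share from each could not be separated. miR-222b, which the tables give without an arm, lies apart from the others at chr21:44433920-44433942 on the plus strand. The nearest other microRNA listed in the tables was miR-15a-5p on chromosome 9, 4206256 bases from miR-221-3p, and miR-7146-5p on chromosome 21, 1184017 bases from miR-222b. In the RefSeq gene table of the GRCz12tu assembly, where 3 hairpin genes matched by symbol, the miR-221 and miR-222 hairpins are neighbouring genes next to dipk2b, and mir222b lies between fundc2 and tmem164. None of the 3 lay inside another gene of that table. Exons, introns and untranslated regions of Zv9 are not analysed here.

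The kept libraries held between 250084 and 5028382 reads on mature microRNAs, with Endo at 6 dpf the shallowest and NoEndo at 72 hpf the deepest. A count of 0 would allow up to 12.003 CPM (counts per 1000000 microRNA counts of the library, after division of multi-mapping reads) in the shallowest library and 0.602 CPM in the deepest, and all 5 members had counts in all 10 libraries. Intervals and floors cover counting error only. The summed level of the 3 miR-126 entries, the endothelial marker list, lay between 16093 and 94226 CPM in Endo and between 136 and 715 CPM in NoEndo, and all 3 were detected in every library. Leukocyte markers (7 entries, 6 or 7 detected in a library) summed to 9721 to 62308 CPM in Endo libraries and 721 to 1405 CPM in NoEndo libraries. Of the 6 leukocyte entries tested by edgeR as below, 3 were higher in Endo (miR-142a-3p, miR-150 and miR-223) and 3 were not called, where 14.3% of all microRNAs tested were higher. Epithelial markers (16 entries) summed to 7089 to 34600 CPM in Endo libraries and 72972 to 296310 CPM in NoEndo libraries. Neural markers had 10 of 15 tested entries lower in Endo and 0 higher (median log2 difference -1.75), and muscle markers 3 of 10 lower and 0 higher (median -0.77), where 27.5% of all microRNAs tested were lower, a share close to that of the muscle entries. Erythroid markers (3 entries) summed to 112 to 249 CPM in Endo libraries and 125 to 1641 CPM in NoEndo libraries, and liver and gut markers (4 entries) to 189 to 904 CPM in Endo libraries and 252 to 10309 CPM in NoEndo libraries. The part of these other cell types in the family's differences was not tested, and in bulk samples fewer cells of a type cannot be told apart from less RNA per cell.

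The 2 abundant members were miR-222a-3p and miR-221-3p, with miR-221-3p summed over chromosomes 6 and 9, which together held over 98% of the family's counts in every library. miR-222a-3p held 9.43% of microRNA counts in Endo at 24 hpf, 10.7% and 7.52% at 48 hpf (replicates 1 and 2), 5.997% at 72 hpf and 4.27% at 6 dpf. In NoEndo it held 4.89% at 24 hpf, 4.13% and 2.67% at 48 hpf, 3.16% at 72 hpf, then 2.67% at 6 dpf. At every stage the Endo libraries lay above the NoEndo libraries, but Endo at 6 dpf lay below NoEndo at 24 hpf, so the populations overlapped over the whole course. The widest 95% Wilson interval among these shares, for Endo at 24 hpf, ran from 9.33% to 9.53%. It ranked between 2nd and 6th among all microRNAs in Endo and between 4th and 9th in NoEndo. For scale, the most abundant microRNA held 27.7% of Endo counts at 24 hpf (miR-430b-3p, of a family that clears maternal RNA in zebrafish embryos) and 13.2% to 21.4% in the other Endo libraries.

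miR-221-3p held 5.89% of counts in Endo at 24 hpf, 5.84% and 6.16% at 48 hpf, 3.59% at 72 hpf, then 1.94% at 6 dpf. In NoEndo it held 2.97% at 24 hpf, 3.32% and 2.13% at 48 hpf, 2.72% at 72 hpf, then 1.32% at 6 dpf. Within each stage Endo was again the higher, and only Endo at 6 dpf lay among the NoEndo values. The widest 95% Wilson interval here, also for Endo at 24 hpf, ran from 5.81% to 5.97%. Summed over all 5 members, the family held 15.4%, 16.6%, 13.8%, 9.64% and 6.23% of Endo counts in the same order of stages, against 7.93%, 7.49%, 4.84%, 5.90% and 4.00% of NoEndo counts. The share was lowest at 6 dpf in both populations. After TMM scaling, described with the tests, this order did not hold, and the 6 dpf libraries have the smallest factors of their populations (0.468 in Endo and 0.568 in NoEndo).

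The 3 scarce members stood far below. miR-221-5p had 996 CPM in Endo at 24 hpf, 412 and 456 CPM at 48 hpf, 266 CPM at 72 hpf and 156 CPM at 6 dpf. Its NoEndo levels were 606 CPM at 24 hpf, 164 and 141 CPM at 48 hpf, 142 CPM at 72 hpf and 47.1 CPM at 6 dpf. On this unscaled level both populations were highest at 24 hpf and lowest at 6 dpf, and the 24 hpf NoEndo library lay above all later Endo libraries.

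miR-222a-5p had 123 CPM in Endo at 24 hpf, 226 and 598 CPM at 48 hpf, 209 CPM at 72 hpf and 56.0 CPM at 6 dpf. In NoEndo it had 99.6 CPM at 24 hpf, 196 and 223 CPM at 48 hpf, 169 CPM at 72 hpf and 31.2 CPM at 6 dpf. Unlike miR-221-5p it had its highest unscaled values at 48 hpf, and replicate 2 of Endo at 48 hpf stood above every other library.

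miR-222b rested on few reads in several libraries, 7, 258, 271, 72.5 and 13 adjusted counts in Endo at 24 hpf, 48 hpf (replicates 1 and 2), 72 hpf and 6 dpf, and 3, 13, 32, 27 and 37 in NoEndo. In CPM these came to 21.6, 242, 365, 72.8 and 52.0 in Endo, against 4.67, 19.95, 13.9, 5.41 and 21.4 in NoEndo. All Endo libraries were above all NoEndo libraries, narrowly so for Endo at 24 hpf, whose 95% Poisson interval of 8.68 to 44.5 CPM holds 3 of the 5 NoEndo levels. How many other microRNAs separate in this way was not counted. At 24 hpf the NoEndo count of 3 (0.963 to 13.6 CPM) is at the detection floor.

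**Figure D1:**
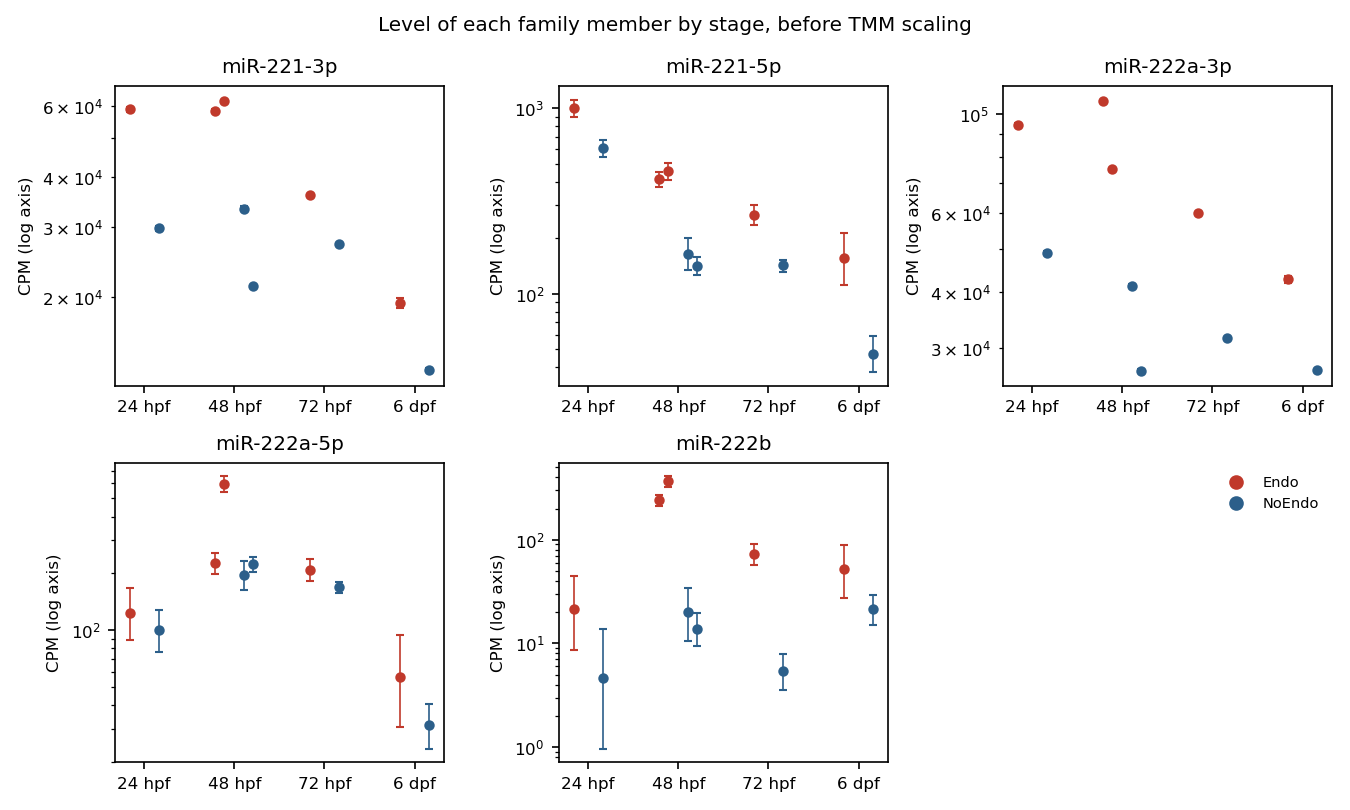
Level of each member by stage in CPM on a log axis, before TMM scaling, with Endo to the left of NoEndo at each stage; each point is 1 library (2 per population at 48 hpf) and bars are 95% Poisson intervals of its count. Endo points are above NoEndo points at every stage in all 5 panels. Intervals of the populations overlap for miR-222a-5p at 24 hpf, 48 hpf and 6 dpf, and for miR-222b at 24 hpf and 6 dpf. miR-221-5p is highest at 24 hpf in both populations, and miR-222b spans 21.6 to 365 CPM in Endo libraries and 4.67 to 21.4 CPM in NoEndo libraries.

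Whether the family was higher in Endo than in NoEndo was tested with edgeR's quasi-likelihood test with TMM scaling (a composition correction across libraries), stage as a factor and Benjamini-Hochberg adjustment over all 265 microRNAs tested. All 5 members were higher in Endo at an adjusted p under 0.05, where 14.3% of the microRNAs tested were higher. Their log2 differences ran from 1.10 to 3.71 with a median of 1.498, beside a median of -0.0653 over all microRNAs tested. Both arms of miR-221 and of miR-222a and the chromosome 21 member thus shared a direction, for miR-221-3p as the sum of its places. Apart from miR-222b, the members are listed within 588 bases of chromosome 9, miR-221-3p also on chromosome 6. The 5 are therefore not separate observations.

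For the abundant pair, TMM-scaled levels did not overlap between the populations. The share of all microRNAs tested without overlap was not counted. On the TMM scale miR-222a-3p averaged 86877 ± 23346 CPM over the 5 Endo libraries, against 33312 ± 17289 CPM over the 5 NoEndo libraries (SD, n = 5 each), with a lowest Endo library of 59458 and a highest NoEndo library of 54152. The edgeR log2 difference was 1.498 (SE 0.36, 2.83-fold, adjusted p = 0.00540). On the same scale miR-221-3p averaged 51377 ± 11972 CPM in Endo, against 21997 ± 8529 CPM in NoEndo, with a lowest Endo library of 39498 and a highest NoEndo library of 32909. Its edgeR log2 difference was 1.25 (SE 0.34, 2.38-fold, adjusted p = 0.0106). Before TMM scaling the populations overlapped for both, as given above for the shares, and Endo at 6 dpf, the library that overlapped, has the smallest TMM factor (0.468).

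The 5p arms were also higher in Endo, with overlap after scaling. miR-221-5p had a mean scaled level of 509 ± 353 CPM in Endo, against 209 ± 260 CPM in NoEndo (edgeR log2 difference 1.70, SE 0.36, adjusted p = 0.00221). The NoEndo library at 24 hpf, at 672, exceeded the 4 Endo libraries of later stages. For miR-222a-5p the means were 239 ± 140 CPM in Endo and 106 ± 33.8 CPM in NoEndo on the same scale (log2 difference 1.10, SE 0.38, edgeR adjusted p = 0.0315). Its lowest Endo value, 120 at 6 dpf, was below 2 of the NoEndo values. This call ended with total counts in place of TMM (log2 difference 0.68, adjusted p = 0.176), with no filter on low counts (0.97, adjusted p = 0.0540), and on leaving out any single library other than Endo at 24 hpf, Endo replicate 1 at 48 hpf or NoEndo at 24 hpf (edgeR adjusted p between 0.0268 and 0.108 over the 10 omissions).

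miR-222b had the largest difference of the family. Its scaled level averaged 151 ± 113 CPM in Endo, against 13.4 ± 14.1 CPM in NoEndo (SD, n = 5 each), an edgeR log2 difference of 3.71 (SE 0.63, 13.1-fold, adjusted p = 0.000592). That was the 7th largest difference in size among the 265 microRNAs tested. On the scaled level Endo at 24 hpf, at 24.6, was below NoEndo at 6 dpf, at 37.7, and all other Endo libraries were above all NoEndo libraries.

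These calls depend on the title given to the identical file. Its summed markers were 18799 CPM for miR-126, 36506 CPM for leukocytes and 7520 CPM for epithelia, each inside the range of the Endo libraries and outside that of the NoEndo libraries. The same held for its neural (6385 CPM), muscle (5948 CPM) and liver and gut (224 CPM) sums. Its erythroid sum, 53.0 CPM, lay below the ranges of both populations. With the file kept as NoEndo, the log2 differences stayed above 0 and none of the 5 passed, with edgeR adjusted p between 0.0877 and 0.208. Kept under both titles, the adjusted p-values ran from 0.0634 to 0.123, and kept as Endo all 5 passed. Without the stage term, miR-222b alone passed (adjusted p = 0.0119), and the other 4 had adjusted p between 0.0892 and 0.238. Total counts alone lowered the median of all microRNAs by 0.46 and still left the 5 differences above 0, between 0.68 and 3.24. The count of all microRNAs called in either direction, 111, was 65 without the NoEndo library and 70 without the Endo library at 72 hpf.

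**Figure D2:**
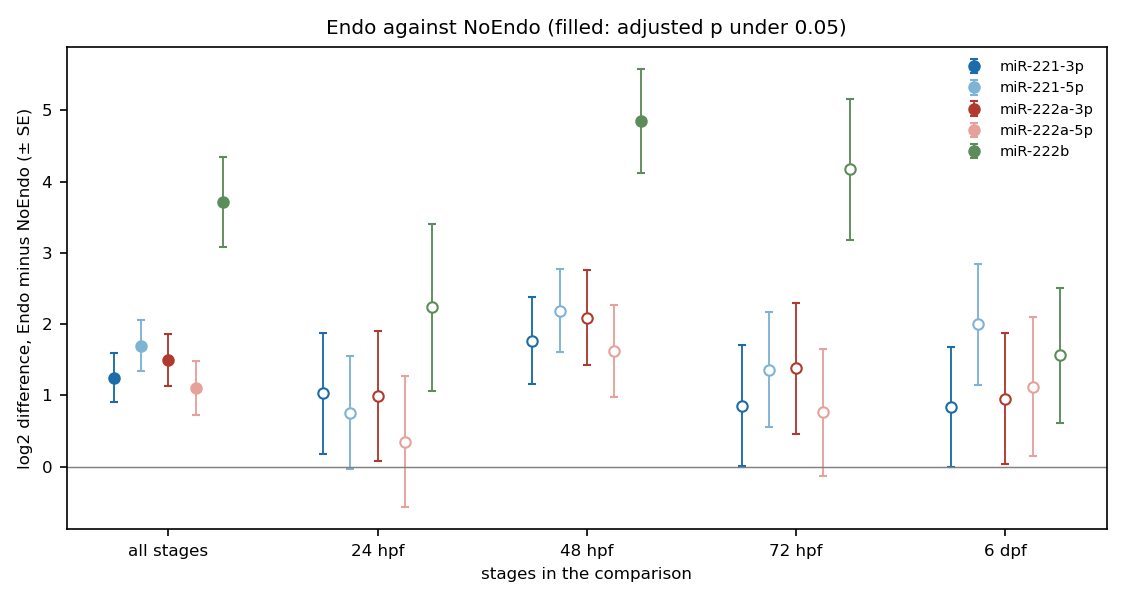
Log2 difference of TMM-scaled levels, Endo minus NoEndo, for each member over all stages and within each stage; bars are 1 SE and filled points passed an adjusted p of 0.05 in edgeR. All points lie above 0; the 5 differences over all stages and that of miR-222b at 48 hpf (4.85) are filled.

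Within single stages, all 20 member differences were above 0, and 1 of 20 passed edgeR's test. A replicate term gave 9 of 20. The replicate numbers do not establish pairing, though deviations of replicate 1 at 48 hpf correlated at 0.778 between Endo and NoEndo over 163 microRNAs. The share of all microRNAs called within stages with the replicate term was not counted. Without that term, miR-222b was 28.9-fold higher in Endo at 48 hpf (log2 difference 4.85, SE 0.73, edgeR adjusted p = 0.00777), where 4.91% of all microRNAs tested were higher. At 48 hpf it had 249 and 288 TMM-scaled CPM in Endo, against 13.8 and 5.86 in NoEndo, with a replicate gap of 1.16-fold in Endo and 2.36-fold in NoEndo. NoEndo replicate 2 at this stage has the largest TMM factor of all libraries (2.37), which lowers its scaled level. Unscaled, miR-222b had 242 and 365 CPM in Endo, against 19.95 and 13.9 in NoEndo. Its log2 difference ran from 4.18 to 5.01 over the 10 alternatives that omitted no library. Omitting an Endo library of 48 hpf leaves the spread to the NoEndo pair of that stage. The call ended without Endo replicate 1 (log2 difference 4.97) and without Endo replicate 2 (4.75). It also ended with the identical file kept as NoEndo (4.81, adjusted p = 0.375) or under both titles (4.81, adjusted p = 0.279). The estimate itself moved with the NoEndo libraries of 48 hpf, to 5.50 without replicate 1 and 4.19 without replicate 2. It passed in both cases, where the spread is left to the Endo pair.

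The differences of miR-222b at the other stages were 2.24 (SE 1.17) at 24 hpf, 4.17 (SE 0.99) at 72 hpf and 1.56 (SE 0.95) at 6 dpf, with edgeR adjusted p of 0.515, 0.0584 and 0.358. Whether that at 72 hpf passed depended on the setting. It passed in 8 alternatives, did not in 9, and changed sign in 1. For the other 4 members at 48 hpf the log2 difference was 1.76 (SE 0.61, adjusted p = 0.0850) for miR-221-3p, 2.19 (SE 0.59, adjusted p = 0.0614) for miR-221-5p, 2.09 (SE 0.67, adjusted p = 0.0778) for miR-222a-3p and 1.62 (SE 0.64, adjusted p = 0.120) for miR-222a-5p, all by edgeR. All 4 had an unadjusted p under 0.05 in edgeR at that stage, where 96 of the 265 microRNAs tested had one, in either direction. The single libraries of the other stages gave log2 differences between 0.35 and 1.997 for these 4 members, and 0.755%, 2.64% and 1.51% of all microRNAs tested were higher in Endo at 24 hpf, 72 hpf and 6 dpf. No test compared the differences of separate stages with each other, apart from the slopes below.

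Between 24 and 48 hpf, 1 of 10 member steps passed edgeR's test. Of all microRNAs tested, 8.3% passed at this step in Endo and 10.9% in NoEndo, in either direction. The member count is near that share. miR-221-5p fell in NoEndo to 114 and 59.5 TMM-scaled CPM at 48 hpf, against 672 at 24 hpf (log2 difference -2.96, SE 0.67, adjusted p = 0.0319), where 7.17% of all microRNAs tested were lower. In Endo it had 425 and 361 at 48 hpf, against 1136 at 24 hpf, a log2 difference of -1.53 (SE 0.66) that did not pass (edgeR adjusted p = 0.190). Each 24 hpf group is 1 library. The NoEndo call ended with total counts alone (-1.99, adjusted p = 0.103), with the read counts before multi-mapping adjustment (-2.68, adjusted p = 0.0686), without either Endo library of 48 hpf (adjusted p = 0.151 and 0.143), without NoEndo replicate 2 at 48 hpf (-2.49, adjusted p = 0.0641), and with the identical file kept as NoEndo (adjusted p = 0.188) or under both titles (adjusted p = 0.138).

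miR-222b took the opposite course in Endo, with 249 and 288 TMM-scaled CPM at 48 hpf, against 24.6 at 24 hpf. That log2 difference of 3.45 (SE 0.96) did not pass (edgeR adjusted p = 0.0758), though it did in 4 alternatives and not in 15. Of all microRNAs tested, 8.3% changed in either direction in this step. In NoEndo the same step was 0.83 (SE 1.03). For miR-222a-5p the step was 1.33 (SE 0.84) in Endo and 0.06 (SE 0.78) in NoEndo. The 3p arms had steps of -0.30 (SE 0.72) and -0.34 (SE 0.78) in Endo and of -1.04 (SE 0.70) and -1.44 (SE 0.76) in NoEndo, in the order miR-221-3p and miR-222a-3p. None of these passed, and for both 3p arms in Endo and miR-222a-5p in NoEndo the sign of the estimate depends on the setting.

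Between 48 and 72 hpf and between 72 hpf and 6 dpf, 0 of the 20 member steps passed edgeR's test, and by DESeq2 and limma-voom the number was also 0. Over all steps, the first included, 5 of 30 passed with a replicate term and 1 without it. With that term the share of all microRNAs passing at steps was not counted. At an unadjusted p under 0.05, 1 of the 20 passed, miR-222b in NoEndo from 72 hpf to 6 dpf, with 37.7 TMM-scaled CPM at 6 dpf against 4.35 at 72 hpf (edgeR adjusted p = 0.213). Among all microRNAs tested, 0% and 0% were called at these steps in Endo and 1.13% and 0% in NoEndo, by edgeR. At these 4 steps between 2 and 22 microRNAs were called by DESeq2 and between 0 and 6 by limma-voom, and 13 to 53 had an unadjusted p under 0.05 in edgeR. The most, 22 by DESeq2, 6 by limma-voom and 53 unadjusted, were in NoEndo at 6 dpf against 72 hpf, with no member among the calls of either tool.

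Slopes on log2 hours gave 0 of 15 calls for the members by edgeR, with 1 at an unadjusted p under 0.05, 1 by DESeq2 and 0 by limma-voom. That one was miR-221-5p in NoEndo, with a slope of -1.09 per doubling of age (SE 0.36, edgeR adjusted p = 0.0659), beside -0.68 (SE 0.38, adjusted p = 0.306) in Endo. Both rest on the single 24 hpf library of their population. Without it the slope was -0.053 in NoEndo (edgeR adjusted p = 0.946), and in Endo it was -0.16 (adjusted p = 0.946). The difference of its slopes between the populations did not pass (Endo minus NoEndo 0.41, SE 0.51, edgeR adjusted p = 0.999). Of all microRNAs tested, 15.1% had a called slope in NoEndo, 5.66% in Endo and 0% a called difference (12 at an unadjusted p under 0.05, 1 by DESeq2). Among those 265 microRNAs, 85 slopes in NoEndo and 67 in Endo had an unadjusted p under 0.05 in edgeR. DESeq2 called 74 in NoEndo and 57 in Endo, and limma-voom 46 and 11.

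Ratios between members of 1 library do not depend on its scaling. The 3p over 5p ratio of miR-221 was 142 and 135 at 48 hpf, 135 at 72 hpf, then 124 at 6 dpf in Endo, against 59.1 at 24 hpf. In NoEndo it was 202 and 151 at 48 hpf, 191 at 72 hpf, then 280 at 6 dpf, against 49.0 at 24 hpf. The 5p arm thus made up 1.66% of miR-221 counts in Endo and 1.999% in NoEndo at 24 hpf, and no more than 0.800% in either population later. At 24 hpf this is 1 library of each population. The 3p counts are summed over chromosomes 6 and 9, while the 5p arm is listed on chromosome 9 only. The ratio therefore need not be that of 1 hairpin.

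The arms of miR-222a followed another course. Its 3p over 5p ratio in Endo was 764 at 24 hpf, 474 and 126 at 48 hpf, 287 at 72 hpf, then 762 at 6 dpf, and in NoEndo 491, 211 and 120, 187 and 857 at the same stages. In both populations the values given were higher at the first and last stage than in between. Each of those stages is a single library per population. Their miR-222a-5p counts were 40 at 24 hpf and 14 at 6 dpf in Endo, and 64 and 54 in NoEndo. The Poisson interval of the Endo count at 6 dpf ran from 7.65 to 23.49. Counting error was not carried into the ratios, and the 2 Endo replicates at 48 hpf lay far apart. This course is therefore a description of these libraries. Per count of miR-221-3p there were 1.60 counts of miR-222a-3p in Endo at 24 hpf, 1.83 and 1.22 at 48 hpf, 1.67 at 72 hpf, then 2.21 at 6 dpf. In NoEndo the values were 1.65, 1.24 and 1.25, 1.16 and 2.03, so that 6 dpf gave the highest value in both populations and the abundant pair stayed within a range of 1.16 to 2.21.

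Against miR-222a-3p, miR-222b was the more abundant in Endo. Per 1000 counts of miR-222a-3p there were 0.229 counts of miR-222b in Endo at 24 hpf, 2.26 and 4.85 at 48 hpf, 1.21 at 72 hpf, then 1.22 at 6 dpf. In NoEndo there were 0.0955, 0.483 and 0.520, 0.172 and 0.799. Endo was higher at every stage, by 1.99 on the log2 scale on average (3.98-fold). An exact two-sided permutation of the titles within stages, with 48 arrangements, gave the smallest p it allows, 0.0417. After Benjamini-Hochberg adjustment over the 4 ratios tested, that permutation p became 0.167. An adjusted p under 0.05 was possible only if all 4 ratios reached the smallest p. The adjusted test therefore decides nothing about a single ratio. The other 3 mean log2 ratios differed between Endo and NoEndo by -0.42 (3p over 5p of miR-221), 0.46 (3p over 5p of miR-222a) and 0.22 (miR-222a-3p over miR-221-3p), with exact permutation p of 0.167, 0.375 and 0.250 (adjusted p of 0.333, 0.375 and 0.333).

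**Figure D3:**
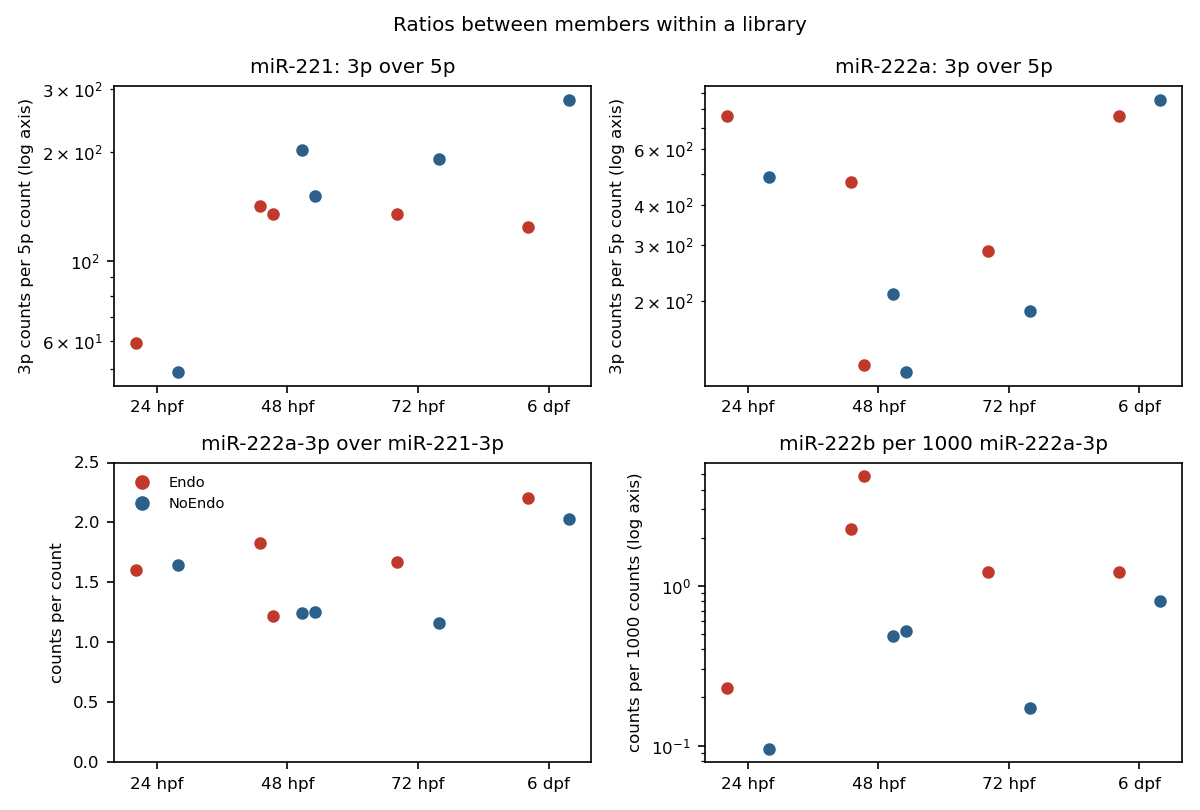
Ratios between members within each library by stage, with Endo to the left of NoEndo (log axes except for miR-222a-3p over miR-221-3p); each point is 1 library. The 3p over 5p ratio of miR-221, with 3p summed over both its places, is lowest at 24 hpf in both populations (59.1 and 49.0). That of miR-222a has its lowest library at 48 hpf (126 in Endo and 120 in NoEndo), and miR-222b per 1000 miR-222a-3p is higher in Endo at every stage.

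Across the 10 libraries the abundant pair ran together, with a Pearson correlation of log2 TMM-scaled levels of 0.957 (Spearman 0.952). These correlations are descriptions over libraries that share the Endo and NoEndo split, the stages and the scaling. The 2 arms of miR-221 correlated at 0.869 and the 2 arms of miR-222a at 0.35, and the 5p arms of the neighbouring hairpins at 0.429. miR-222b correlated with its chromosome 9 relatives at 0.343 (miR-221-5p) to 0.680 (miR-222a-3p).

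Among 159 other microRNAs at a mean of at least 100 CPM, those most like miR-222a-3p over the 10 libraries were miR-139-3p at 0.902, miR-22a-3p at 0.845, miR-15c at 0.832, miR-735-5p at 0.827 and miR-30a-5p at 0.815. Those most like miR-221-3p were miR-456 at 0.807, the endothelial miR-126b-3p at 0.805, miR-139-3p at 0.805, miR-22a-3p at 0.803 and miR-130a at 0.794. No outside microRNA was as close to either 3p arm as they were to each other. For miR-222b, looked up after its values were seen, the closest were miR-223, a myeloid microRNA, at 0.946 and miR-139-5p at 0.942. Next came miR-150 at 0.878, a leukocyte marker, miR-21 at 0.864 and the endothelial miR-126a-3p at 0.855. The part of leukocyte RNA in the level of miR-222b was not tested.

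Of 64 other entries in a list of microRNAs named in vascular work (miR-126, the miR-23, miR-24 and miR-27 group, miR-210, miR-139 and others), 55 were tested. Of these 17 were higher in Endo and 4 lower by edgeR, where 14.3% of all microRNAs tested were higher and 27.5% lower, with a median log2 difference of 0.41 beside -0.0653 for all microRNAs tested. Its highest were miR-126b-3p at 6.91, miR-126a-3p at 6.87 and the joint miR-126 5p entry at 6.36, and its lowest miR-10d-3p at -1.74, miR-92b-5p at -1.40 and miR-27e at -1.40. The members of the miR-221 and miR-222 family, from 1.10 to 3.71, lay above the median of that list and below its miR-126 entries.

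Reads on the antisense strand of the members were almost absent, with at most 3 adjusted counts in a library, all at miR-221-3p.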

How the data were processed

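Liberase dissociation, sorting of GFP-positive cells, Trizol extraction and Illumina TruSeq library preparation are described, per the labels' protocols. STAR 2.3.0 and the build Zv9 are listed, per the submitters' processing notes, with trimming, annotation, counter, filters and settings not given in the sources used here. The deposited read counts and unique reads are whole numbers per genomic place, with multi-mapping reads counted at each place. The deposited expected counts, headed as adjusted for multiple mapping per the file headers, divide such reads over their places. The deposited signal columns are RPM on 2 library totals and served only to recover those totals.

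Expected counts were summed by name and rounded. Tests used edgeR 4.0.16 (R 4.3.3, limma 3.58.1) on microRNAs reaching 10 CPM in 3 or more libraries, with Benjamini-Hochberg adjustment at 0.05, all 265 tested together. The biological coefficient of variation was 0.45, and TMM factors ran from 0.468 to 2.37. Each SE was taken as the size of a log2 difference divided by the root of its F value. Stage tests and steps used 1 mean per population and stage, so their spread comes from 48 hpf. Log2 ratios in the permutation tests had 0.5 added to each count, and the ratios given for single libraries had nothing added. DESeq2 1.42.0, limma-voom, other scalings, filters and count columns, uses of the identical file, a replicate term and omission of each library were alternatives. Scripts were tested on simulated data. All 5 members are named; similar microRNAs and vascular entries were named by correlation (5 for each 3p arm) and by the 3 highest and lowest differences. Members and lists were chosen with earlier results of these data known. MicroRNA sequences are not shown here.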

Additional observations from a re-analysis of the deposited data

Results flagged for a closer look

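miR-221-5p at 24 hpf stood apart from the other libraries of its population on the TMM-scaled level, at 1136 CPM in Endo (gap over range 0.843) and 672 CPM in NoEndo (0.911). Its partner ratio, the 3p over 5p ratio of miR-221, was likewise set apart in Endo at 24 hpf, at 59.1 (0.787). miR-222b in NoEndo at 6 dpf, at 37.7 TMM-scaled CPM, stood above the other NoEndo libraries (0.715). Each of these groups of 5 libraries spans 4 stages, so a library far from the others is also a stage far from the others. A gap above Dixon's 95% critical value arises by chance in about 5% of groups.

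The file deposited under both titles at 72 hpf, which no comparison used, held miR-222a-3p at 84199 CPM and miR-222b at 120 CPM, against highest NoEndo levels of 48894 and 21.4 CPM. Its miR-221-3p (32742 CPM), miR-221-5p (259 CPM) and miR-222a-5p (90.2 CPM) lay within the ranges of both populations. Over all microRNAs the log2 levels of this file correlated with the Endo libraries at 0.857 to 0.949 and with the NoEndo libraries at 0.755 to 0.816, as a description.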

How the results depend on the processing

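The log2 differences of all 5 members between Endo and NoEndo stayed above 0 under every alternative tried; miR-222b had none under the 100 CPM filter, where it was not tested. Calls ended with the identical file kept as NoEndo (miR-221-3p 1.05, miR-221-5p 1.41, miR-222a-3p 1.12, miR-222a-5p 1.06, miR-222b 2.62) or under both titles (0.996, 1.32, 1.12, 0.92 and 2.33), and, except for miR-222b, without the stage term (1.22, 1.29, 1.38 and 1.18). That of miR-222a-5p also ended with total counts alone (0.68) and without a filter (0.97), and it ran from 0.83 to 1.26 with each library left out. The count of all microRNAs called, 111, was 27, 40 and 43 under those first 3 settings and 65 to 120 with each library left out. Member calls within stages, 1 of 20, were 5 with DESeq2, 3 with limma-voom, 4 with the identical file as Endo, 0 with it as NoEndo or under both titles, and 0 to 5 with each library left out. Of all 265 microRNAs, edgeR called 2, 28, 10 and 5 at 24, 48 and 72 hpf and 6 dpf. DESeq2 called 8, 66, 35 and 28 in that order, and limma-voom 2, 23, 17 and 5. Calls at steps, 1 of 30, were 2 with DESeq2, 0 with total counts alone, with unadjusted read counts and with the identical file as NoEndo or under both titles, and 0 to 2 with each library left out. At the step from 24 to 48 hpf, DESeq2 called 50 of all microRNAs in Endo and 47 in NoEndo, against 22 and 29 by edgeR. Slope calls, 0 of 15, were 1 with DESeq2, DESeq2 size factors, total counts alone and the identical file as Endo, and 0 to 1 with each library left out. Of all microRNAs, DESeq2 called 57 slopes in Endo and 74 in NoEndo, against 15 and 40 by edgeR.

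Estimates that did not pass and changed sign were, for Endo minus NoEndo at 72 hpf with the identical file as NoEndo, miR-222a-3p (-0.35) and miR-222b (-0.34); for the Endo step to 48 hpf, miR-221-3p (0.027 with total counts alone) and miR-222a-3p (-0.85 to 0.037 with each library left out); for the NoEndo step, miR-222a-5p (-0.048 with limma-voom, -0.22 to 0.38 with each library left out); and the slope difference of miR-221-5p (-0.63 to 1.08 with each library left out). The cause was not tested.

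Only 48 hpf has both replicates, so the numbers do not establish pairing; deviations of replicate 1 there correlated at 0.778 between Endo and NoEndo over 163 microRNAs. With a replicate block, 126 microRNAs were called between Endo and NoEndo over all stages. Member calls were 9 within stages and 5 at steps, where the calls of all microRNAs with the block were not counted. The steps of miR-221-3p (0.13) and miR-222a-3p (0.16) in Endo and miR-222a-5p (-0.059) in NoEndo changed sign with it. Depth limits miR-222b most, with 3 to 37 counts in NoEndo, and 24 hpf, 72 hpf and 6 dpf each have 1 library per population.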
